A study of Mus musculus with 16 samples.

Results

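The genes described here encode microtubule-associated proteins of neurons, namely Mtap1a, Mtap1b, Mtap2, Mtap4, Mtap6, Mtap7 and Mapt. They were chosen by name from the platform annotation, which gives older Mtap symbols for genes now called Map. They are 7 of the 21634 genes named by probe sets with a single gene symbol, and they hold 191 of the 303629 such probe sets. A probe set is a small group of array probes that mostly covers 1 exon. All 7 genes had a measured level, and 172 of the 191 probe sets lay above the floor set for dim signal (6.73 on the log2 scale used below). The other 19 did not, 9 of them in Mtap7. Of the members nearest that floor, Mtap7 probe set 4966413 lay just inside at 6.73 and Mtap7 probe set 4500065 just outside at 6.72.

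The samples were 16 exon arrays of total RNA from embryos of CD1, an outbred mouse stock, at E18.5 (late gestation), 4 arrays in each of 4 groups. The groups were spinal cord of Nova1/2 double knockouts (dKO), spinal cord of wild type embryos (WT), whole brain of dKO embryos and whole brain of WT embryos. Nova1 and Nova2 are neuronal RNA-binding proteins that control alternative splicing and RNA levels in the nervous system. Each array held 1 biological replicate, and the loss affected the whole embryo in both dKO groups. The labels do not say which part of Nova1 and Nova2 is deleted.

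Microtubules are polymers of tubulin that carry transport and give axons and dendrites their shape. Microtubule-associated proteins bind along these polymers, stabilize them, space them and guide motor proteins on them. MAP2 is the classic marker of dendrites and tau, the product of Mapt, of axons. MAP1B is abundant in growing axons, while MAP1A becomes prominent as neurons mature. MAP4 is the relative found in most cell types, MAP6 protects microtubules against cold, and MAP7 recruits kinesin-1. Transcripts of Mtap2, Mtap4, Mtap6 and Mapt are alternatively spliced, and MAP2 is known in long forms and in a short form of immature neurons that lacks a large central region. Positions of probe sets within their genes were not used here, so each is named by its identifier and not as an exon.

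All 7 symbols matched the RefSeq gene table of mouse assembly GRCm38.p6. Mtap1a (Map1a) lies on chr2:121289590-121310832, Mtap1b (Map1b) on chr13:99421464-99516602, Mtap2 (Map2) on chr1:66175202-66442583 and Mtap4 (Map4) on chr9:109929841-110083954. Mtap6 (Map6) lies on chr7:99266779-99337137, Mtap7 (Map7) on chr10:20148920-20281590 and Mapt on chr11:104229409-104332090. Of the 7, 5 had promoter windows in the RefSeq table, 6 windows in all, and Map6 and Mapt were not listed there. The 250 bases upstream of a start are shown for the 3 genes on which the genotype values turn: Map2, whose probe sets divide into a low block and a near-level remainder, Map1a, whose probe sets were nearly all lower, and Map4, which has 2 listed starts and probe sets that differed in both directions. These listed starts lie within the gene spans given above. The Map2 and Map1a windows thus overlap their genes in part, and both Map4 windows lie inside Map4. Capitals mark the dinucleotide CG, which reads alike on both strands.

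Map2, chr1:66175079-66175328, plus strand: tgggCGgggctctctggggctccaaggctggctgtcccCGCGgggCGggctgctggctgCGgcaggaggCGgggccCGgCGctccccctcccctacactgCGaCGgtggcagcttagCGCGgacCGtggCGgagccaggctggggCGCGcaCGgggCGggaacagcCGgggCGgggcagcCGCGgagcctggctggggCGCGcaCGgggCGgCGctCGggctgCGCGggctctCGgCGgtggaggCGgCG
Map1a, chr2:121289352-121289601, plus strand: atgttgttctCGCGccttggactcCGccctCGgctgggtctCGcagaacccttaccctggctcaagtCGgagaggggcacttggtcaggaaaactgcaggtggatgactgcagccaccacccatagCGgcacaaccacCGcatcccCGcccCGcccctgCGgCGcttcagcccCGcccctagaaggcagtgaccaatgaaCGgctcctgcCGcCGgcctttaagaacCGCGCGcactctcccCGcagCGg
Map4, chr9:109931524-109931773, plus strand: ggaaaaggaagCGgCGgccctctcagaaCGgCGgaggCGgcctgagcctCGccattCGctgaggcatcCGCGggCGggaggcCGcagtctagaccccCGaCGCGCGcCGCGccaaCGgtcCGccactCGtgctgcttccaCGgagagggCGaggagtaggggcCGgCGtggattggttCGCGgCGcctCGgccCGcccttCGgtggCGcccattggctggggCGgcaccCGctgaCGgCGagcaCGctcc
Map4, chr9:110051771-110052020, plus strand: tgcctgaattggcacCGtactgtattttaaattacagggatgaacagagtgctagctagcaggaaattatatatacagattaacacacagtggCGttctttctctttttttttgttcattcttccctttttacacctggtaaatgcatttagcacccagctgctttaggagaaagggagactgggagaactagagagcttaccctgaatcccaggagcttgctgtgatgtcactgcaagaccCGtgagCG

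The Map2 window holds 34 CG, more than 96.5% of the 32851 windows of the same length, which hold a median of 6. The Map1a window holds 21 CG, more than 83.7% of windows. The 2 Map4 windows differ, with 36 CG in the first and 4 in the second. At least 1 CG stands in 92.1% of all windows. These sequences are GRCm38.p6 reference and describe the windows only.

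Values are log2(intensity + 16), with intensity as deposited, so a log2 difference understates the change of dim probe sets. The level of a gene is the median over its probe sets above the floor, and the exon index of a probe set is its own value with the gene's level on that array subtracted. Levels are not compared between genes, since probes differ in brightness. Median intensity was 99.5 to 116 on the spinal cord arrays and 72.3 to 82.9 on the brain arrays. Gene levels correlated between arrays of the same tissue at no less than 0.9294 in cord and 0.9445 in brain. Nova1, read first as a check of the labels, was lower in dKO than in WT, with differences of -5.31 in cord and -5.03 in brain, as was Nova2 (-1.14 and -0.75), with no overlap of arrays. By their Xist and Y-linked signals, the dKO cords were 3 females and 1 male, the WT cords 2 and 2, the dKO brains 4 females and the WT brains 2 and 2. Muscle genes were high on 4 cord arrays, with scores of 9.48 and 8.88 on dKO cords 2 and 4 and of 10.12 and 9.32 on WT cords 1 and 4, against 7.43 to 7.68 on the other cords.

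The family was proposed with the dKO and WT values of these arrays already known. The genotype differences below are therefore descriptions of the 7 genes with their standard errors (SE, 4 arrays per group). No p-value is given for them, and where members past limma's threshold in these contrasts are counted, the count stands beside the share of all features and nothing is read from it. The comparison of spinal cord with brain over both genotypes, which shares neither of those differences, was tested.

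Mtap2 was lower in dKO than in WT in both tissues at the gene level. Its level was 10.37, 10.36, 10.43 and 10.30 on the 4 dKO cords, against 11.63, 10.86, 11.22 and 11.32 on the 4 WT cords. It was 10.18, 10.32, 10.39 and 10.41 on the dKO brains, against 11.29, 11.30, 11.40 and 11.32 on the WT brains. Every dKO array lay below every WT array of its tissue, and WT cord 2 was the lowest of the WT arrays. The difference was -0.89 (SE 0.119) in cord and -1.0 (SE 0.119) in brain, which are 1.86-fold and 2-fold. From high to low the group means ran WT brain, WT cord, dKO cord, dKO brain. The WT pair overlapped, and so did the dKO pair.

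This gene-level value does not describe most of the probe sets. Of the 35 Mtap2 probe sets above the floor, 5 were lower by 1 or more with no overlap of arrays in either tissue, a block picked after its values were seen. Their differences ran from -2.07 to -1.36 in cord (2.56-fold to 4.19-fold, median -1.54) and from -2.10 to -1.42 in brain (2.67-fold to 4.28-fold, median -1.58). The other 30 probe sets ran from -0.35 to 0.46 in cord (median -0.11) and from -0.33 to 0.15 in brain (median -0.071). No Mtap2 probe set had a difference between -1.36 and -0.35 in cord or between -1.42 and -0.33 in brain. Of all 206355 named probe sets above the floor, 0.0834% were lower by 1 or more in both tissues.

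The largest difference of the block was at probe set 5059981. It read 8.76, 8.76, 9.0 and 8.87 in dKO cords, against 11.19, 10.86, 10.78 and 10.81 in WT cords. It read 8.64, 8.82, 8.69 and 7.94 in dKO brains, against 10.34, 10.43, 10.81 and 10.90 in WT brains. The gap between the genotypes exceeded the whole spread within any of the 4 groups.

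Probe set 5129365 had the tightest dKO values of the block, 10.12, 10.14, 10.24 and 10.19 in cords, against 11.83, 11.50, 11.65 and 11.87 in WT cords. In brain it read 10.10, 10.29, 10.13 and 10.22 in dKO, against 11.78, 11.60, 11.94 and 11.90 in WT. Both dKO groups thus sat at nearly the same value, more than 1 log2 unit under both WT groups. Probe sets 4414579, 5123064 and 5161361 showed the same arrangement of the groups. Probe set 4414579 read 10.51 to 10.65 in dKO cords, against 11.38 to 12.31 in WT cords, and 10.17 to 10.39 in dKO brains, against 11.53 to 11.86 in WT brains. Probe set 5123064 read 9.92 to 10.36 in dKO cords, against 11.22 to 12.01 in WT cords, and 9.72 to 10.05 in dKO brains, against 11.30 to 11.67 in WT brains. Probe set 5161361 read 10.36 to 10.61 in dKO cords, against 11.74 to 12.20 in WT cords, and 10.18 to 10.52 in dKO brains, against 11.82 to 12.07 in WT brains. The size of the difference was alike in the tissues, with at most 0.085 between cord and brain at any of the 5. Spinal cord and brain arrays of the block also lay close together within a genotype, with tissue differences from -0.053 to 0.31.

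**Figure D1:**
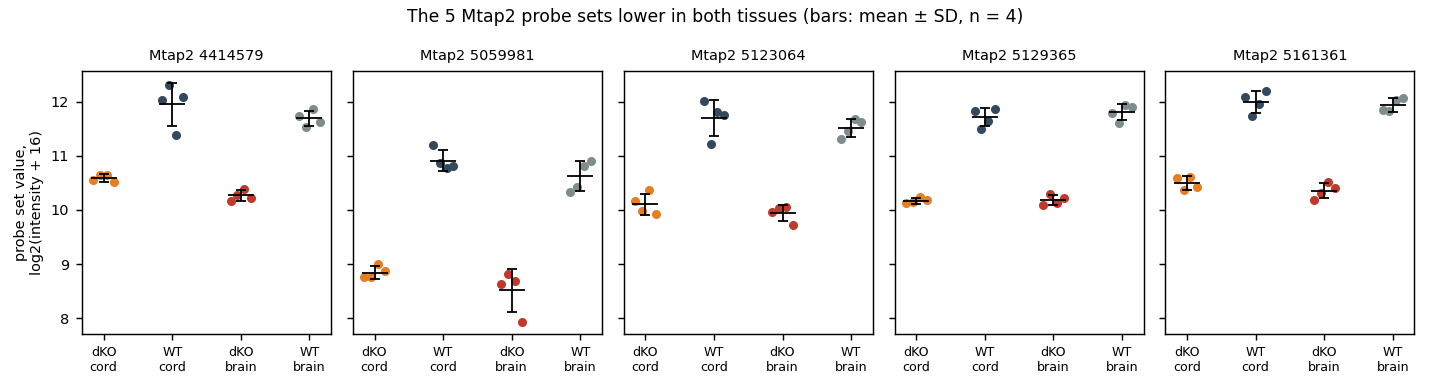
Values on the log2(intensity + 16) axis of the 5 Mtap2 probe sets that were lower in both tissues, with 1 point per array and bars for the mean ± SD (n = 4) of dKO cord, WT cord, dKO brain and WT brain. At each probe set all dKO points lie below all WT points of the same tissue, and the median difference of the 5 is -1.54 in cord and -1.58 in brain.

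How 5 of 35 probe sets move a median is visible in the ranked values. In WT cord the middle probe set averaged 11.35, with its lower neighbour at 11.01, and in WT brain 11.33, with its lower neighbour at 10.74. In dKO cord the middle one was at 10.37 and in dKO brain at 10.36. The median thus passed over a stretch of the brightness scale that holds few probe sets. Taken as a mean over probe sets, the Mtap2 difference was -0.27 in cord and -0.31 in brain. Without the block it was -0.25 (SE 0.136) in cord and -0.031 in brain, and the median of the 35 single differences was -0.15 in cord and -0.091 in brain. Medians over the 30 other probe sets ran from 10.46 to 10.59 on dKO cords, against 10.30 to 11.26 on WT cords, and from 10.63 to 10.73 on dKO brains, against 10.58 to 10.80 on WT brains. The genotypes overlapped there in both tissues.

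Set against the median of those 30 probe sets, the differences of the block ran from -1.82 to -1.11 in cord and from -2.07 to -1.39 in brain. Among the 30, 6 were lower in cord with no overlap of arrays (-0.35 to -0.20), as were 6.03% of all probe sets, and 2 were lower in brain (-0.22 to -0.18), as were 1.79% of all. The exon index as computed on the whole gene subtracts the moved median, so it places most of the remainder higher. By it, 20 Mtap2 probe sets were higher and 4 lower in dKO cord, and 18 were higher and 3 lower in dKO brain. Over all probe sets 0.388% passed by this measure in cord (0.235% higher, 0.153% lower) and 0.15% in brain (0.0683% higher, 0.0818% lower).

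Mtap1a was lower in dKO cord across nearly all of its probe sets. Its level was 9.54, 9.24, 9.37 and 9.16 in dKO cords, against 10.53, 10.15, 10.15 and 10.09 in WT cords, a difference of -0.91 (SE 0.145, 1.87-fold). It was 8.90, 9.11, 9.23 and 8.80 in dKO brains, against 9.34, 9.08, 9.72 and 9.06 in WT brains, a difference of -0.29 (SE 0.145, 1.22-fold). With 1 array left out the brain difference ran from -0.37 to -0.15. The cord groups did not overlap and the brain groups did. The difference was larger in cord by 0.61 (SE 0.205), a value that was not tested. WT cord had the highest mean, and the other 3 group means lay from 9.01 to 9.33 with overlapping arrays among neighbours.

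Of the 23 Mtap1a probe sets above the floor, 22 were below 0 in each tissue, with a median difference of -0.79 in cord and -0.30 in brain. In cord 19 were lower with no overlap of arrays (-2.33 to -0.66), as were 6.03% of all probe sets. In brain 3 were, as were 1.79% of all. A pair of probe sets stood below the others. Probe set 4496037 read 8.83, 7.98, 8.29 and 7.45 in dKO cords, against 10.62, 10.39, 10.52 and 10.34 in WT cords, a difference of -2.33 (SE 0.233, 5.02-fold). In brain it read 7.94, 7.79, 8.25 and 7.81 in dKO, against 8.99, 8.82, 9.60 and 8.77 in WT, a difference of -1.09 (2.13-fold). Neither tissue had an overlap, and the 2 dKO groups lay closer to each other than the 2 WT groups did.

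Probe set 5280081 also had both WT groups above both dKO groups by their means. It read 8.48, 7.46, 7.96 and 7.69 in dKO cords, against 10, 9.96, 10.15 and 10.06 in WT cords, a difference of -2.15 (SE 0.225, 4.44-fold). In dKO brains it read 7.75, 8.05, 8.38 and 7.66, against 8.86, 8.47, 9.48 and 8.62 in WT brains, a difference of -0.90 (1.87-fold). Relative to the gene, these 2 probe sets differed by -1.42 and -1.24 in cord and by -0.80 and -0.61 in brain. The other 17 that were lower in cord ran from -1.34 to -0.66. At the opposite end, dim probe set 5350267 differed by 0.14 in cord, which is 1.04 above the gene. Its WT value rests partly on WT cord 2, at 7.99 against 7.26 to 7.32 on the other WT cords.

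Astrocyte and oligodendrocyte markers moved in the same tissue as Mtap1a. The astrocyte score, a mean over 9 of 10 listed genes, was 9.81 to 10.11 on dKO cords, against 10.19 to 10.60 on WT cords. Of these 9 genes, 6 passed the test as lower in dKO cord, where 4.55% of all genes did. The oligodendrocyte score over 7 of 8 genes was 8.04 to 8.13 on dKO cords, against 8.30 to 8.58 on WT cords, with 3 of 7 genes lower. In brain the astrocyte score was 9.86 to 10.15 in dKO, against 9.84 to 10.04 in WT, and the oligodendrocyte score 8.12 to 8.23 in dKO, against 8.17 to 8.33 in WT. The neuron score over 9 of 10 genes was 10.90 to 11.18 on dKO cords, against 11.01 to 11.29 on WT cords, and 11.03 to 11.20 in dKO brain, against 10.99 to 11.20 in WT brain, with 1 gene lower in cord and none called in brain. The part of these shifts in the Mtap1a value was not tested. In whole tissue, fewer cells of a type and less RNA per cell cannot be told apart.

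Mtap4, the family member of broadest expression, had a higher mean level in dKO in both tissues, by more than Mtap1b (0.074 in cord and 0.058 in brain, given below). It was 10.58, 10.42, 10.52 and 10.46 in dKO cords, against 10.42, 10.03, 10.22 and 9.90 in WT cords, a difference of 0.36 (SE 0.102, 1.28-fold). It was 10.83, 10.79, 10.79 and 10.75 in dKO brains, against 10.60, 10.70, 10.50 and 10.69 in WT brains, a difference of 0.17 (SE 0.102, 1.12-fold). Brain arrays did not overlap, and in cord WT cord 1 equalled the lowest dKO array at 2 decimals. The difference in cord was larger by 0.19 (SE 0.144), a value that was not tested. The means ran in the order dKO brain, WT brain, dKO cord, WT cord, and only WT brain and dKO cord overlapped by more than that shared value.

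Most Mtap4 probe sets followed the gene, and 2 went the other way in both tissues. Of 33 above the floor, 12 were higher in both tissues with no overlap of arrays (cord 0.26 to 1.07, brain 0.15 to 1.07), and 18 were higher in cord and 13 in brain. Of all probe sets 3.75% were higher in this way in cord, 1.89% in brain and 0.315% in both, and 0.808% were lower in both. Probe set 4943163 was the highest, with 8.16, 8.15, 7.91 and 7.94 in dKO cords, against 7.61, 6.59, 6.54 and 7.14 in WT cords. In brain it read 7.88, 8.28, 8.36 and 8.35 in dKO, against 6.85, 7.42, 7.17 and 7.16 in WT. Both differences came to 1.07 (SE 0.2, 2.1-fold).

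Lower in both tissues were Mtap4 probe sets 4741985 and 5519116. The first read 10.01, 9.89, 9.69 and 9.77 in dKO cords, against 10.89, 10.59, 10.71 and 10.40 in WT cords (-0.81, SE 0.12, 1.75-fold). In brain it read 10.38, 10.30, 10.54 and 10.48 in dKO, against 11.07, 10.83, 11.13 and 10.99 in WT (-0.58, 1.49-fold). All dKO arrays were below all WT arrays of their tissue. The second read 9.78, 9.35, 9.74 and 9.31 in dKO cords, against 10.85, 10.50, 10.61 and 10.23 in WT cords (-1.0, SE 0.143, 2-fold). In brain it read 9.90, 9.92, 9.80 and 9.58 in dKO, against 10.28, 10.37, 10.40 and 10.46 in WT (-0.58). Relative to the gene it differed by -1.35 in cord. Probe set 4960574 was lower with no overlap in brain, with 7.50, 7.36, 7.30 and 7.16 in dKO, against 8.31, 8.23, 7.68 and 8.16 in WT (-0.76). In cord, where it lay near the floor, it differed by -0.31 with overlapping arrays.

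Mtap6 levels overlapped between the genotypes in both tissues. Its level was 10.61, 10.32, 10.20 and 10.29 in dKO cords, against 10.76, 10.48, 10.52 and 10.31 in WT cords (-0.16). In dKO brains it was 10.53, 10.50, 10.48 and 10.59, against 10.46, 10.56, 10.63 and 10.45 in WT brains (0.0019, SE 0.105). Mtap6 probe set 4548329, 1 of 18, was lower in both tissues with no overlap of arrays, as were 0.808% of all probe sets. It read 10.01, 9.84, 9.79 and 9.88 in dKO cords, against 10.79, 10.08, 10.98 and 10.10 in WT cords (-0.61, SE 0.181). In brain it read 9.72, 9.46, 9.84 and 9.75 in dKO, against 10.22, 10.18, 10.59 and 10.08 in WT (-0.58). The other 17 ran from -0.31 to 0.39 in cord and from -0.12 to 0.26 in brain.

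**Figure D2:**
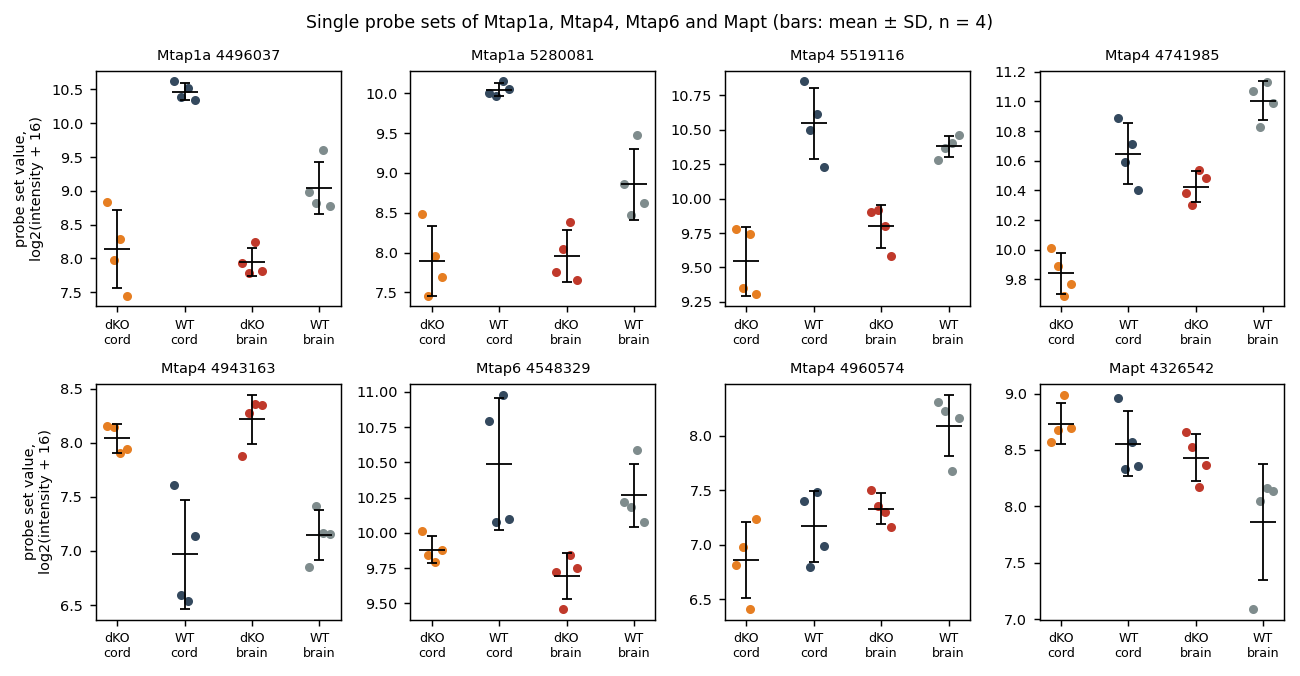
Values on the log2(intensity + 16) axis of single probe sets of Mtap1a, Mtap4, Mtap6 and Mapt, with 1 point per array and bars for the mean ± SD (n = 4) in each of the 4 groups. The 2 Mtap1a, 2 of the 4 Mtap4 and the Mtap6 probe sets shown are lower in dKO in both tissues, while Mtap4 4943163 is higher by 1.07 in each. Mtap4 4960574 and Mapt 4326542 separate the genotypes only in brain.

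The axonal members stood nearly level between the genotypes. Mapt was 11.21, 11.02, 11.11 and 11.01 in dKO cords, against 11.36, 11.22, 11.27 and 11.11 in WT cords (-0.15, SE 0.088). It was 11.41, 11.36, 11.26 and 11.40 in dKO brains, against 11.33, 11.23, 11.44 and 11.32 in WT brains (0.029). The arrays overlapped in both tissues. Mtap1b was 11.41, 11.25, 11.50 and 11.44 in dKO cords, against 11.41, 11.28, 11.21 and 11.40 in WT cords (0.074, SE 0.0933). In brain it was 11.62, 11.61, 11.67 and 11.76 in dKO, against 11.48, 11.50, 11.74 and 11.71 in WT (0.058). Differences of this size are smaller than their SE except that of Mapt in cord.

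Of 20 Mapt probe sets, 2 were higher and 1 lower in dKO cord with no overlap of arrays, and 1 was higher in brain. Of all probe sets 3.75% were higher and 6.03% lower in cord, and 1.89% were higher in brain. Mapt 4326542 read 8.66, 8.53, 8.17 and 8.37 in dKO brains, against 7.09, 8.05, 8.16 and 8.14 in WT brains (0.57), but WT brain 1 was far below its group and the highest WT value, 8.16, nearly touches the lowest dKO array. In cord it differed by 0.18 with overlapping arrays. Mapt 5203947 was higher in dKO cord by 0.71, with 7.62, 7.72, 7.25 and 7.58 in dKO, against 6.90, 6.31, 7.24 and 6.87 in WT, and differed by -0.097 in brain. Of 21 Mtap1b probe sets, 4 were higher in dKO cord with no overlap (0.67 to 0.99), as were 3.75% of all probe sets. These 4 were dim, with WT cord means of 6.18 to 7.92. The other 17 ran from -0.046 to 0.71 in cord, and all 21 from -0.17 to 0.56 in brain. The kinesin-1 partner gene Mtap7 was dim, with group means only 0.55 to 0.73 above the floor. It was 7.75, 7.34, 7.26 and 7.40 in dKO cords, against 7.63, 7.63, 7.32 and 7.27 in WT cords (-0.027), and 7.25, 7.19, 7.56 and 7.30 in dKO brains, against 7.21, 7.28, 7.38 and 7.24 in WT brains (0.047, SE 0.119). The genotypes overlapped in both tissues.

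**Figure D3:**
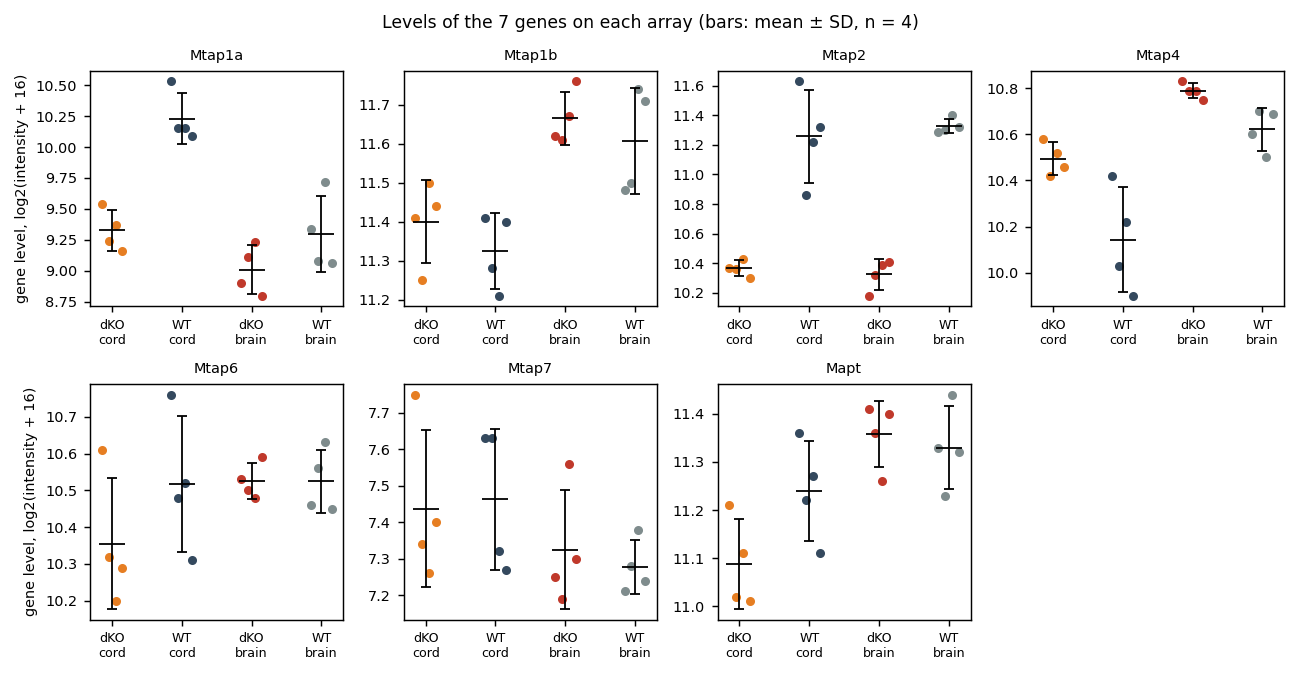
Gene levels on the log2(intensity + 16) axis of the 7 genes, with 1 point per array and bars for the mean ± SD (n = 4) in dKO cord, WT cord, dKO brain and WT brain. Mtap2 separates dKO from WT in cord (-0.89) and brain (-1.0), and Mtap1a separates them in cord (-0.91). Mtap4 is higher in dKO with no overlap in brain (0.17) and in cord (0.36), where the nearest arrays are equal at 2 decimals.

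By limma over all genes at an adjusted p of 0.05, Mtap1a, Mtap2 and Mtap4 were among the genes called in cord, where 5.63% of all 14570 genes were (1.08% higher, 4.55% lower), and Mtap2 among those in brain, where 0.268% were (0.192% lower). Since the genes were chosen with these contrasts known, those shares are background only. Mtap4 lay near the threshold. Leaving out 1 array at a time, its cord call held in only 2 of 16 fits, those without WT brain 3 or WT cord 1, with differences of 0.28 to 0.45. Without the 4 arrays rich in muscle genes Mtap2 alone of the 7 was called in cord, with Mtap1a at -0.70 and Mtap4 at 0.43, and with means over probe sets no member was called in brain. In cord 11.5% of genes had groups with no overlap of arrays and in brain 4%. Over the 172 member probe sets the groups had no overlap in cord for 36 lower and 25 higher ones, where 6.03% of all probe sets were lower and 3.75% higher. In brain it held for 14 lower and 14 higher ones, where 1.79% of all were lower and 1.89% higher. In both tissues 11 were lower and 12 higher, against 0.808% and 0.315% of all, and none went in opposite directions. The 11 lower ones are 5 of Mtap2, 3 of Mtap1a, 2 of Mtap4 and 1 of Mtap6, and the 12 higher ones are all of Mtap4.

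Brain and cord share no array, so the differences of the same probe sets can be set side by side. Over probe sets of a gene, the brain and cord differences correlated with Pearson r of 0.945 for Mtap2 (35), 0.913 for Mtap1a (23) and 0.909 for Mtap4 (33). The value was 0.617 for Mtap6 (18), 0.474 for Mtap1b (21), 0.126 for Mapt (20) and 0.0178 for Mtap7 (22). Over all 206355 probe sets it was 0.351. These describe probe sets that share a gene and are not independent replicates. The Mtap2 value includes the block of 5, which was picked for low values in both tissues and so raises it. It does not describe the other 30, for which no correlation was computed.

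**Figure D4:**
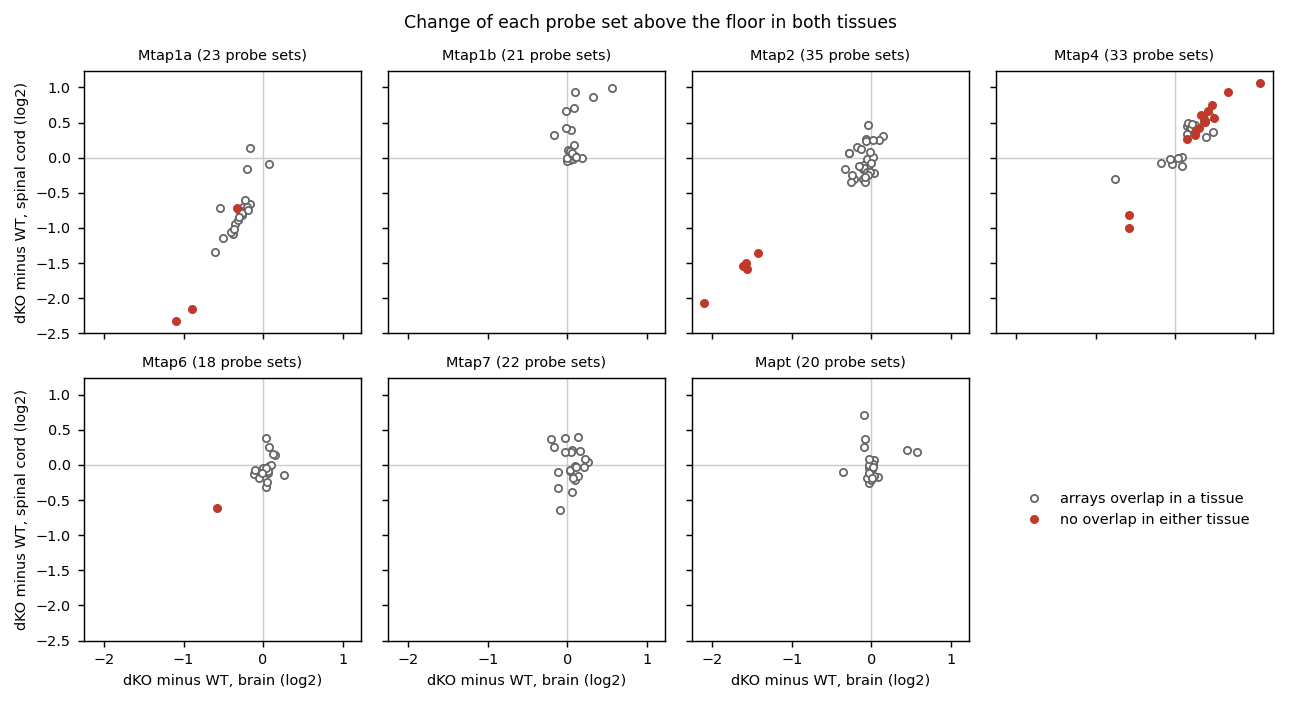
Difference dKO minus WT of each probe set above the floor in brain (x axis, log2) and in spinal cord (y axis, log2), with 1 panel per gene. Filled points have no overlap of arrays in either tissue. The 5 Mtap2 points form a block below -1 on both axes apart from the other 30, the Mtap1a points are mostly below 0 with larger values in cord, and the Mtap4 points lie mostly above 0.

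The tested comparison asked how the family differs between spinal cord and brain at this age, over both genotypes with 8 arrays per tissue. Mtap1a was higher in cord, and Mtap4, Mtap1b and Mapt were lower on the deposited scale, Mapt with the opposite sign (0.04) after quantile normalization. By limma with Benjamini-Hochberg adjustment over all genes, 4 of the 7 passed, in a comparison where 75.7% of all genes did (24.2% higher, 51.5% lower). The share among the members is below that of all genes. The median difference of all genes was -0.21. Regional markers separated the tissues, with Hox scores of 9.14 to 9.63 on cord arrays against 6.04 to 6.92 on brain arrays. Telencephalon scores were 7.12 to 7.49 on cord arrays. On brain arrays they were 7.51 on WT brain 3 and 8.22 on dKO brain 3, against 9.55 to 9.80 on the other brains. Progenitor scores were 8.57 to 8.77 on cord arrays, against 9.31 to 9.57 on brain arrays. The part of tissue makeup in the values below was not tested.

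Mtap1a was 0.62 higher in spinal cord (SE 0.102, limma adjusted p = 2.24e-05). The difference was 0.32 between the dKO groups, whose arrays overlapped, and 0.93 between the WT groups, where all 4 cords lay above all 4 brains. Its adjusted p ran from 1.2e-06 to 0.000419 over 28 alternatives, with differences of 0.50 to 0.79. Only this member kept both its call and its direction under all of them.

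Mtap4 was lower in cord by 0.39 (difference -0.39, SE 0.0722, limma adjusted p = 8.98e-05), with -0.29 in dKO and -0.48 in WT. All cords lay below all brains within each genotype. Mtap1b was lower by 0.27 (difference -0.27, SE 0.066, limma adjusted p = 0.0011), with -0.26 in dKO and -0.28 in WT and the same separation of arrays. Both differences exceeded the spread between replicates on the deposited scale. After quantile normalization over all 16 arrays they shrank to -0.13 for Mtap4 (adjusted p = 0.0516) and -0.069 for Mtap1b (adjusted p = 0.323), past the threshold in neither case. With means over probe sets in place of medians Mtap1b was at -0.032 (adjusted p = 0.623), the highest of its alternatives.

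Mapt was lower in cord by 0.18 (difference -0.18, SE 0.0622, limma adjusted p = 0.0124), with -0.27 in dKO and -0.092 in WT, but it was at 0.04 after quantile normalization (adjusted p = 0.534) and at 0.062 with means (adjusted p = 0.285). Its direction thus hangs on the scaling. Mtap2 did not pass (difference -0.016, SE 0.0845, limma adjusted p = 0.869), at 0.039 in dKO and -0.072 in WT, and was at 0.22 after quantile normalization (adjusted p = 0.0141) and 0.26 with means (adjusted p = 0.00168). Mtap6 (difference -0.09, limma adjusted p = 0.277; 0.17 after quantile normalization, adjusted p = 0.0239) and Mtap7 (difference 0.15, limma adjusted p = 0.109; -0.16 after quantile normalization, adjusted p = 0.113) also changed sign with the scaling. Mtap7 passed as higher in cord in 5 of the 28 alternatives. These were means over probe sets (0.23, adjusted p = 0.00156), no floor (0.25, adjusted p = 0.0139), a floor raised to the 75th percentile (0.39, adjusted p = 7.2e-05), and the fits without dKO brain 3 (0.19, adjusted p = 0.048) or without both brain arrays of number 3 (0.21, adjusted p = 0.0362).

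**Figure D5:**
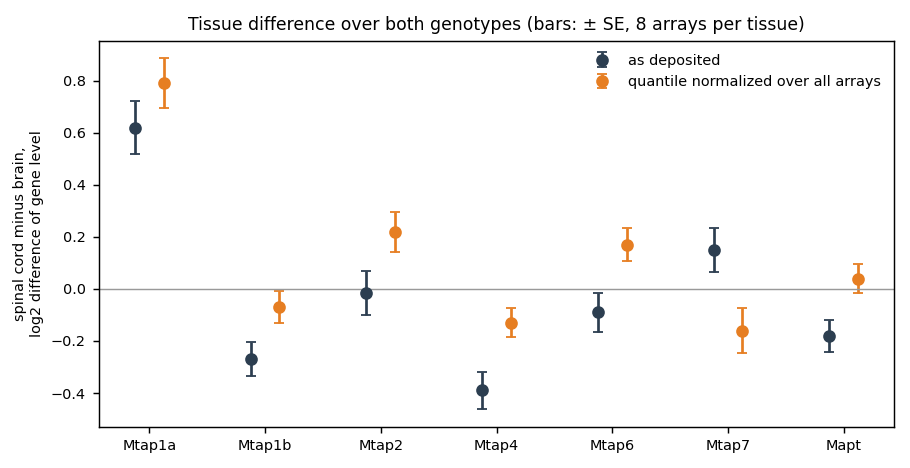
Spinal cord minus brain difference of gene level (y axis, log2; bars are ± SE, 8 arrays per tissue) for the 7 genes, from the values as deposited and after quantile normalization over all arrays. Mtap1a is higher in cord under both (0.62 and 0.79), Mtap1b and Mtap4 are below 0 under both, and Mtap2, Mtap6, Mtap7 and Mapt change sign.

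The exon index of single probe sets was compared between the tissues in the same way, and the share passing was near that of all probe sets. The exon index passed for 75 of 172 member probe sets, 43 higher and 32 lower in cord, which is 43.6% in a comparison where 41% of all probe sets passed (22.4% higher, 18.6% lower). By gene, Mtap2 had 13 higher and 7 lower, Mtap4 7 and 10, Mtap1b 10 and none, Mtap1a none and 6, Mapt 6 and 1, Mtap6 3 and 5, and Mtap7 4 and 3. The direction went with brightness. Of the 63 member probe sets with a mean under 9, a limit set after the data were seen, 25 were higher and 5 lower, and of the 109 brighter ones 18 were higher and 27 lower. Over all probe sets 24.3% were higher and 17.7% lower under that mean, and 19.7% and 19.9% above it. The floor was set on the mean over all arrays, so a dim probe set could pass it through the tissue where it was high. The counts under 9 are therefore not read as a tissue result. The part of brightness and of this filter in these calls was not tested.

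Mtap2 probe set 5159199 was bright and lower in cord. It read 9.76, 9.59, 9.93 and 9.69 in dKO cords and 10.09, 9.71, 10 and 9.97 in WT cords, against 10.63 to 10.76 in dKO brains and 10.61 to 10.75 in WT brains. All 8 cords lay below all 8 brains, and the index differed by -0.81 (SE 0.0655, limma adjusted p = 4.35e-07). Mtap2 probe set 4961421 was dim in brain and higher in cord, at 8.28 to 8.79 in dKO cords and 7.72 to 8.47 in WT cords, against 6.38 to 7.05 in dKO brains and 5.85 to 7.41 in WT brains. Its index differed by 1.66 (SE 0.191, limma adjusted p = 8.7e-06). Its means of 6.77 in dKO brains and 6.62 in WT brains lay about at the floor of 6.73. It passed that floor through the cord arrays, where it was high, so nothing is read from the call. The values again did not overlap between the tissues, but the index did, at -3.5 on WT cord 3 and -3.36 on dKO brain 4. Neither probe set belongs to the block that was lower in dKO.

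Mapt probe set 4976719 was higher in cord, with 10.36, 10.02, 10.20 and 9.99 in dKO cords and 10.60, 10.39, 10.28 and 9.93 in WT cords, against 9.04 to 9.54 in dKO brains and 9.05 to 9.57 in WT brains. Its index differed by 1.13 (SE 0.11, limma adjusted p = 2.09e-06), and the tissues did not overlap. Mapt probe set 5557363, the brightest named here, had an index lower by 0.34 in cord (difference -0.34, SE 0.0678, limma adjusted p = 0.000956). In Mtap1b, probe set 5205947 had the largest rise of the index, 1.33 (SE 0.158, limma adjusted p = 1.19e-05), at 8.31 to 8.55 in dKO cords and 7.62 to 8.49 in WT cords, against 6.94 to 7.38 in dKO brains and 6.37 to 8.07 in WT brains. The WT arrays overlapped there.

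In the other genes the largest tissue shifts were smaller. Mtap1a probe set 4592104 had an index lower by 0.54 in cord (difference -0.54, limma adjusted p = 3.2e-05), although its own value differed by only 0.083, since the gene was higher. The Mtap4 extremes were 0.91 at probe set 5033714 (limma adjusted p = 0.000243) and -0.31 at probe set 5059444 (limma adjusted p = 0.0449). The second of these calls ended in 18 of 28 alternatives, with adjusted p up to 0.1, among them the fit with a replicate block (adjusted p = 0.0568). The Mtap6 extremes were 0.52 at probe set 4863331 (limma adjusted p = 0.00417), which was at 0.036 after quantile normalization (adjusted p = 0.858), and -0.48 at probe set 5511571 (limma adjusted p = 0.000369). The Mtap7 extremes were 0.74 at probe set 5137218 (limma adjusted p = 0.000159) and -0.49 at probe set 4621590 (limma adjusted p = 0.00946). Without the 4 arrays rich in muscle genes the last was at -0.40 (adjusted p = 0.0769).

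Other genes of microtubule control were counted by list, where 1.08% of all genes were higher and 4.55% lower in dKO cord. Of 21 further microtubule-binding genes tested, 1 was higher in dKO cord, the migration gene Dcx (0.57), and none passed in brain, with medians of 0.0027 in cord and 0.024 in brain. Of 9 destabilizing and severing genes, 1 was higher in dKO cord, Stmn1 (0.37), which encodes the tubulin-binding protein stathmin, with medians of 0.12 and 0.018. Of 18 kinase genes known to act on these proteins, 2 were lower in dKO cord, the tau tubulin kinase gene Ttbk2 (-0.49) and the microtubule affinity kinase gene Mark4 (-0.34), with medians of -0.073 and 0.026. No gene of either list passed in brain. The median difference of all genes was -0.028 in cord and 0.021 in brain.

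Between tissues, where 75.7% of all genes passed and 51.5% were lower in cord, 15 of the 21 binding genes were lower in cord and 3 higher (median -0.37), with Mtap9 at -0.76 (limma adjusted p = 7.81e-09) and Dcx at -0.75 (limma adjusted p = 3.25e-08), and Mtap7d3 at 0.76 (limma adjusted p = 3.3e-07). Of the 9 destabilizing genes 7 were lower and none higher (median -0.43), with Stmn4, a neuronal stathmin, at -1.31 (limma adjusted p = 8.61e-09). Of the 18 kinase genes 16 were lower and none higher (median -0.39). Among them were Cdk5r1, the activator of Cdk5 (-0.89, limma adjusted p = 2.41e-08), Mapk8 (-0.93, limma adjusted p = 1.41e-07) and Camk2a (-0.99, limma adjusted p = 1.86e-07). Over all genes the median was -0.21.

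Among all genes, the levels most like that of Mtap2 over the 16 arrays, each centred on its tissue mean, were those of Dzip1 (Pearson r 0.965), Scn2a1 (0.964), Nova1 (0.961), Ahi1 (0.957) and Dlg3 (0.955). Levels centred in this way vary mainly by genotype for Mtap2, so the ranking restates its genotype difference. The 5 genes had dKO minus WT differences from -5.31 to -0.52. The levels most like that of Mapt were those of Camta2 (0.896), Fbxo41 (0.879), Kat2a (0.876), Irf7 (0.867) and B4galnt1 (0.866), whose dKO minus WT differences ran from -0.58 to -0.31 in cord and from -0.039 to 0.23 in brain.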

How the data were processed

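The authors deposited 1 linear intensity value for each probe set. The submitters' processing notes name Affymetrix Power Tools, the summarization method PLIER and build mm8. Their versions and settings are not known here, and detection calls were not used. RNA was extracted with Trizol, per the labels' protocols. Gene names come from GEO's platform annotation and are old in part. Of 625534 probe sets, 303629 carry a single symbol, 5892 several and 316013 none here. The number of arrays limits the precision.

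From these, log2(intensity + 16) was taken. A floor at the median of all probe set means, 6.73, was set, with at least 3 probe sets above it for a gene level (14570 genes) and 5 for an exon index (193126 probe sets of 12340 genes). Group means over all 16 arrays were fitted with lmFit and eBayes of limma 3.58.1 (R 4.3.3, data.table version 1.17.8). Tests are two-sided with Benjamini-Hochberg adjustment at 0.05 over all features. The fits were tested on simulated data. No 2 arrays held identical values.

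Groups and replicate numbers come from the sample titles. Whether equal numbers pair arrays was checked by correlating deviations from group means. Between dKO and WT brains of 1 number the correlations were 0.21 to 0.41, each array best with its own number. Between dKO and WT cords of 1 number they were -0.12 to 0. Between cord and brain of 1 number they were -0.02 to 0.04 in dKO and -0.15 to -0.04 in WT. The main fits did not pair arrays, and a replicate block over all arrays was fitted as an alternative.

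The members and lists were chosen with earlier results of these data known. Named were the 7 genes with every array, per gene the extremes of the exon index in each direction among probe sets with no overlap of arrays (genotype) or called (tissue), and the 5 genes most like Mtap2 and most like Mapt. Further probe sets with no overlap in both tissues were named after their values were seen. Alternatives tried were means, other floors, pseudocounts and scalings, a replicate block, a sex term, the 8 arrays of 1 tissue, and leaving out each array, both brains of number 3 (low in telencephalon genes) or the 4 muscle-rich cords.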

Additional observations from a re-analysis of the deposited data

Results flagged for a closer look

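In some groups of 4 arrays the highest or lowest stood apart from the other 3 by Dixon's test. It marked 1 of the 28 groups of gene levels and 8 of the 120 groups of the 30 named probe sets, and chance marks about 1 in 20. The Mtap1a level of WT cord 1 was 10.53, against 10.09 to 10.15 on the other WT cords. Its probe set 5350267 read 7.99 on WT cord 2 against 7.26 to 7.32, and its probe set 4592104 read 9.94 on dKO cord 1 against 9.53 to 9.59. Mtap2 probe set 5309788 was marked in both cord groups, with 8.25 on dKO cord 3 against 7.92 to 7.95, and 5.95 on WT cord 1, far below the 8.0 to 8.16 of the other WT cords. Mtap2 probe set 5159199 read 10.76 on dKO brain 3 against 10.63 on the others. Mtap4 probe set 5059444 read 10.96 on WT brain 3 against 11.13 to 11.15. Mapt probe set 4326542 read 7.09 on WT brain 1 against 8.05 to 8.16, and Mapt probe set 5557363 read 12.37 on dKO cord 4 against 12.29 to 12.30.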

How the results depend on the processing

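The block of 5 Mtap2 probe sets stayed lower in dKO under all alternatives, by less in cord without the muscle-rich arrays. Its median difference ran from -1.61 to -1.49 in cord and from -1.63 to -1.54 in brain with 1 array left out, and was -1.25 in cord without the 4 muscle-rich arrays. The Mtap2 level depended on how probe sets were summarized. With 1 array left out it differed by -1.02 to -0.77 in cord and by -1.03 to -0.95 in brain. It was -0.27 in cord and -0.31 in brain with means, -0.25 and -0.031 without the block, and -0.15 and -0.091 as the median of single differences, the last 2 chosen after the data were seen. It was -0.78 in brain with no floor and -0.64 in cord without the muscle-rich arrays. Between tissues, signs turned for Mtap2 (0.26 with means, 0.22 with quantile normalization over all arrays), Mapt (0.062 and 0.04), and with that normalization for Mtap6 (0.17) and Mtap7 (-0.16, not called in either setting). The members called between tissues numbered 4 to 5 with 1 array left out, and their probe sets with a called exon index 71 to 80. Called exon indices of members by genotype numbered 8 with means against 24 in brain, and in cord 14 with means, 14 with the 8 cord arrays alone and 5 without the muscle-rich arrays, against 30. Over all genes, calls in cord numbered 1620 after quantile normalization (27.8% higher, against 19.1%), 425, 425 and 420 without dKO cords 2, 3 and 4, 540 without WT cord 3, 1231 without WT cord 4 and 100 without the muscle-rich arrays, against 820. In brain they numbered 59 with quantile normalization within tissues and 24 with the 8 brain arrays, against 39. The causes were not tested.

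Each replicate number occurs once in every group, so the replicate block could change the SE and the calls but no difference. The Mtap2 difference with it was therefore -0.89 in cord and -1.0 in brain by design, and that of its block of 5 probe sets -1.54 and -1.58. The same 4 genes were called between tissues, and among the named probe sets the block ended the call of Mtap4 5059444. Of 172 values for the Mtap2 level, its block and the member counts between tissues, 163 counted as the same under the alternatives. Of 1649 other values 1591 did. Part of these could not move, since leaving out an array of 1 tissue cannot change the genotype difference of the other tissue. The same holds for differences under the replicate block. Both counts of unchanged values are raised by this. Tested differences counted as the same on the same side of the threshold, with a change of sign allowed where neither fit passed. Genotype differences did when they moved by less than the spread, whatever their call. Counts did when they changed by no more than a set ratio.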
